A study of Mus musculus with 22 samples.

Results

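The type I interferon antiviral effectors described here are 9 mouse genes, Stat2, Ifit1, Ifit2, Ifit3, Oas1a, Oasl2, Rsad2, Isg15 and Usp18. They were chosen by name from the 55487 genes of each deposited count table. The rule uses no expression value, but earlier results of these data were known when it was made. All 9 were counted in both tables and passed the filter on low counts in both. Messenger RNA of brown adipose tissue (BAT) from C57BL/6 mice was sequenced, and 22 libraries, 1 per mouse, fell into 6 groups. In the untreated cohort, 5 CPEB2-WT and 5 CPEB2-KO mice received no virus, and their tissue was taken at 21 to 25 weeks of age. The authors' paper states that these mice were kept without food for some hours beforehand, and it names no such step for the AAV cohort. In the AAV cohort, interscapular BAT of mice of either genotype was injected at 16 weeks with 2e+10 vector genomes of an adeno-associated virus (AAV) in 30 µl and was taken 9 weeks later, at 25 weeks. The 4 AAV groups held 3 mice each, namely WT with AAV-GFP, WT with AAV-PRDM16, KO with AAV-GFP and KO with AAV-PRDM16. The KO lacks the RNA-binding protein CPEB2 in every tissue, the GFP virus carries a fluorescent protein and is the control, and the PRDM16 virus carries a transcription factor that drives the brown fat program. All 12 mice of the AAV cohort carried a virus, so no uninjected group was tabulated with them. The labels call all mice male.

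Type I interferons bind the receptor IFNAR on the cell surface, and its kinases JAK1 and TYK2 then phosphorylate STAT2. STAT2 acts with IRF9 in the factor ISGF3, which binds the interferon-stimulated response element (ISRE) in the promoters of antiviral genes. Interferon gamma acts through a different promoter element, GAS. Among the genes induced by ISGF3, the IFIT proteins bind viral RNA, the OAS proteins sense double-stranded RNA, and viperin, the product of Rsad2, makes a nucleotide that stops viral polymerases. ISG15 is a ubiquitin-like modifier, and USP18 removes it from proteins and also shuts down signalling at IFNAR. Brown fat holds adipocytes together with resident macrophages, endothelium and lymphocytes, and all of these cell types can transcribe these genes.

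Their promoters were searched for the ISRE and GAS elements. The genes were chosen by name as interferon effectors, a class that ISGF3 induces through the ISRE. A share of ISRE matches above that of all genes is therefore no independent result. The ISRE core was searched as a pair of GAAA blocks with 2 free bases between them, and the GAS element as TTCNNNGAA, on both strands of windows of 300 bases around annotated start sites (RefSeq, GRCm38.p6), with overlapping matches counted. Of the 9 genes, 8 had a window, all but Usp18. The ISRE core was found for 6 of these 8 genes, against 3.99% of 27025 genes with a window. The GAS letters were found for 2 of the 8, Ifit2 and Oas1a, against 9.55% of the genes. Neither motif was in the window of Oasl2. The stretches with ISRE matches are printed because most of these genes hold one. Each runs 5′ to 3′ along the strand that reads GAAA, and capitals mark the matches.
Stat2 (chr10:128270266-128270295, minus strand): ctagggaaagGAAACTGAAAccagggtgcg
Ifit1 (chr19:34640784-34640813, minus strand): GAAACTGAAActgagactgGAAAGTGAAAc
Ifit3, nearer match (chr19:34583397-34583426, minus strand): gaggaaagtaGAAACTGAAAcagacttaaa
Ifit3, farther match (chr19:34583363-34583392, minus strand): accagaagagGAAAGTGAAActtaccactg
Oas1a (chr5:120907523-120907552, minus strand): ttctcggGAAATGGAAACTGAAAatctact
Rsad2 (chr12:26456553-26456582, plus strand): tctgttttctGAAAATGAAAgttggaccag
Isg15 (chr4:156200871-156200900, minus strand): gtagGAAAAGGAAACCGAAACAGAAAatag

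The Isg15 window held 3 overlapping matches between 78 and 57 bases before the start site, and the Oas1a window held 2 overlapping matches. Ifit1 and Ifit3 held 2 separate matches each, while Rsad2 and Stat2 held 1. These are matches of letters, and binding was not measured.

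**Figure D1:**
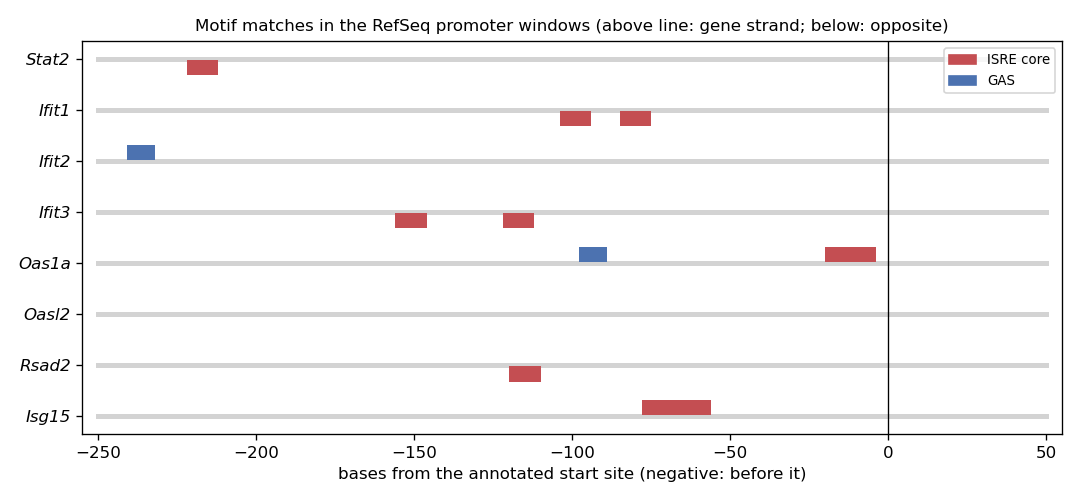
Positions of the ISRE core (red) and GAS (blue) letters in the promoter windows of 8 genes, in bases from the annotated start site, with matches on the gene strand above each line and on the opposite strand below it. Red marks are present for 6 genes, none of them after the start site, and the line of Oasl2 is empty.

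In the genome (GRCm38, Ensembl identifiers as in the count tables), Ifit2 (ENSMUSG00000045932, 34550694 to 34576419), Ifit3 (ENSMUSG00000074896, 34583531 to 34588731) and Ifit1 (ENSMUSG00000034459, 34640871 to 34650009) lie in that order on the plus strand of chromosome 19. Chromosome 5 holds Oasl2 (ENSMUSG00000029561, 114896936 to 114912234, plus strand) and Oas1a (ENSMUSG00000052776, 120896256 to 120907521, minus strand). Stat2 (ENSMUSG00000040033) is on chromosome 10, Rsad2 (ENSMUSG00000020641) on chromosome 12, Isg15 (ENSMUSG00000035692) on chromosome 4 and Usp18 (ENSMUSG00000030107) on chromosome 6. Exons of Usp18 share 124 bases with the antisense transcript Gm44148, and whether counting used the strand is not given in the sources used here. Ifit3 and Oas1a have close copies, Ifit3b and Oas1g, so their counts are uncertain where reads could belong to either.

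Facts of the whole series bear on these values. The libraries held 55320927 to 162721202 counts. Cpeb2 checks the labels. In the AAV cohort it was 4.33 to 5.55 CPM, the counts scaled to library size, in the 6 KO libraries and 10.5 CPM or more in the 6 WT libraries. In the untreated cohort KO replicate 1 had 11.7 CPM of Cpeb2, within the WT range of 7.69 to 14.3 CPM, so it is called the library labelled KO replicate 1. Transcripts of the Y chromosome were near absent from 2 of the 5 untreated WT libraries and 4 of the 5 untreated KO libraries, although the labels call these mice male, and they were present in all 12 AAV libraries. The 8 brown fat markers, Ucp1 among them, summed to 3866 CPM or more in every library, and skeletal muscle markers ranged from 7.49 to 6154 CPM over the untreated libraries. No pair of libraries of a group agreed within sampling noise. The cohorts were tabulated and scaled apart, and levels are not compared between them. In bulk tissue, fewer cells of a type and less RNA per cell cannot be told apart.

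Levels were low to moderate. Per kilobase of exon, the highest group mean in the AAV cohort was 5.61 ± 4.10 CPM per kb for Ifit3 in KO with AAV-GFP (SD, n = 3). At the low end, Oas1a had 0.285 ± 0.0296 CPM per kb in WT with AAV-PRDM16. In untreated WT, Rsad2 (3.70 ± 1.57 CPM per kb) and Isg15 (3.47 ± 2.83) were highest and Oas1a (0.468 ± 0.341) lowest (SD, n = 5). All later levels are CPM without the length correction. KO with AAV-GFP had the highest mean CPM of the 4 AAV groups for 9 of 9 genes. The order of the groups was loose, since the libraries of neighbouring groups overlapped in 22 of 27 cases. In the untreated cohort WT had the higher mean for 4 genes and KO for 5, and the 2 groups overlapped for all 9.

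**Figure D2:**
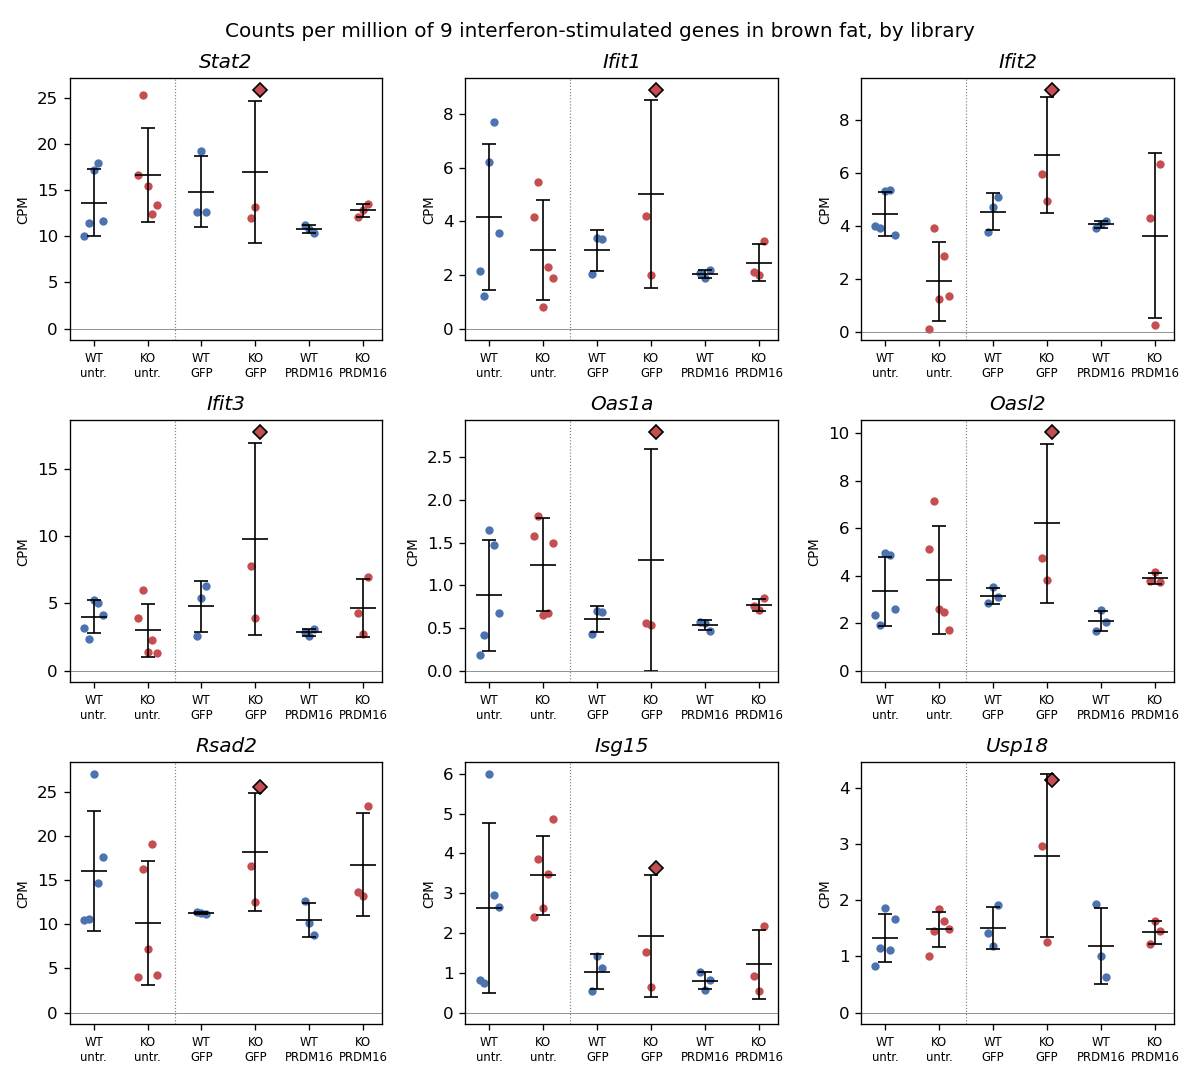
CPM of each of the 9 genes (vertical axis from 0) in the 22 libraries, by group on the horizontal axis, with WT in blue and KO in red, short bars at the mean and error bars of 1 SD (n = 5 untreated, n = 3 AAV). The outlined diamond is KO AAV-GFP replicate 3, the highest AAV library in all 9 panels, for example 17.7 CPM of Ifit3 and 10.0 CPM of Oasl2.

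A single mouse carried much of the height of that group. KO AAV-GFP replicate 3 was the highest of the 12 AAV libraries for 9 of 9 genes, and its mean log2 CPM over the 9 genes was 3.18. The other 11 libraries ranged from 1.05 to 2.10 on the same scale. This library had 119502062 counts, within the range of the other libraries. Its summed macrophage markers (10 genes, Lyz2 and Csf1r among them) were 407 CPM against 47.0 to 175 CPM in the other AAV libraries, and its T cell markers (10 genes) summed to 33.1 CPM against 1.58 to 23.3 CPM. Printed fold changes of the 9 genes that moved by more than 1.5 times or changed sign without this library are given both ways below.

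Stat2, the signal transducer, had similar levels in most libraries. With AAV-GFP it was at 12.6, 19.3 and 12.6 CPM in WT and at 12.0, 13.2 and 25.9 CPM in KO. With AAV-PRDM16 it was at 11.2, 10.9 and 10.4 CPM in WT and at 12.1, 12.8 and 13.5 CPM in KO. The 3 KO AAV-PRDM16 libraries thus lay above the 3 WT AAV-PRDM16 libraries (11.5% of all genes with KO higher), while the AAV-GFP groups overlapped. The fitted log2 fold change of KO over WT was 0.24 (SE 0.26) with AAV-PRDM16 and 0.20 (SE 0.25) with AAV-GFP, and edgeR's quasi-likelihood test with Benjamini-Hochberg adjustment gave adjusted p = 0.732 and 0.901. Without KO AAV-GFP replicate 3 the AAV-GFP value turned to -0.24. In untreated mice Stat2 ranged from 10.0 to 18.0 CPM in WT and from 12.5 to 25.3 CPM in KO, a log2 fold change of 0.29 (SE 0.26, adjusted p = 0.543).

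Ifit1, Ifit2 and Ifit3 encode RNA-binding proteins with tetratricopeptide repeats and lie in 1 cluster on chromosome 19, yet they did not run together in every library. Ifit3 had 2.60, 5.40 and 6.30 CPM in WT AAV-GFP, and KO AAV-GFP had 7.76, 3.88 and 17.7 CPM. In the AAV-PRDM16 groups it had 2.87, 2.57 and 3.09 CPM in WT and 4.30, 2.73 and 6.98 CPM in KO. The genotypes overlapped under both viruses, and the WT AAV-PRDM16 libraries were the tightest set. Averaged over both viruses, KO over WT was 0.87 on the log2 scale for Ifit3 (SE 0.35, adjusted p = 0.206) and 0.52 for Ifit1 (SE 0.30, adjusted p = 0.390). These fell to 0.49 and 0.17 when KO AAV-GFP replicate 3 was left out. Ifit1 was spread from 1.87 to 3.38 CPM over the 6 WT libraries and from 1.99 to 8.89 CPM over the 6 KO libraries.

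Ifit2 behaved apart from Ifit1 and Ifit3. In untreated WT it was at 3.99, 3.93, 5.32, 5.34 and 3.64 CPM, and in untreated KO at 0.126, 3.91, 1.23, 2.88 and 1.37 CPM. The WT libraries were close together, and 4 of the 5 KO libraries were below the lowest of them, with KO replicate 2 inside the WT range. The lowest value was in the library labelled KO replicate 1, with 13 counts of Ifit2, although Ifit1 (4.16 CPM) and Ifit3 (3.89 CPM) were not low there. The fitted log2 fold change was -1.22 (SE 0.61), with an unadjusted p of 0.0668 and an adjusted p of 0.329 by edgeR's quasi-likelihood test. It was -0.92 without the library labelled KO replicate 1. In the AAV cohort 1 library showed the same picture. KO AAV-PRDM16 replicate 2 had 26 counts of Ifit2 (0.241 CPM), while KO AAV-PRDM16 replicates 1 and 3 had 4.28 and 6.35 CPM. The other 11 AAV libraries ranged from 3.76 to 9.11 CPM, and Ifit1 (1.99 CPM) and Ifit3 (2.73 CPM) of the low library were near the WT AAV-PRDM16 values. With AAV-GFP the values were 3.76, 4.73 and 5.10 CPM in WT and 5.96, 4.93 and 9.11 CPM in KO, so that KO and WT overlapped there as well (log2 fold change 0.56, SE 0.67, adjusted p = 0.892, and 0.26 without KO AAV-GFP replicate 3). Under AAV-PRDM16 the log2 fold change was -0.17 (SE 0.68) and turned to 0.39 without the low KO library.

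Oasl2, an OAS-like protein with ubiquitin-like domains, was the one gene of the 9 that passed the adjusted threshold with edgeR in any comparison, and DESeq2 called Rsad2 as well. With AAV-GFP it was at 2.84, 3.51 and 3.08 CPM in WT and at 4.75, 3.82 and 10.0 CPM in KO. With AAV-PRDM16 it was at 1.68, 2.54 and 2.02 CPM in WT and at 3.77, 4.16 and 3.73 CPM in KO. All 6 KO libraries lay above all 6 WT libraries, which was so for 1.13% of the 18899 genes tested (KO higher). Averaged over both viruses, KO was 1.92-fold WT (log2 fold change 0.94, SE 0.22), with adjusted p = 0.0475 by edgeR's quasi-likelihood test, a threshold that 2.18% of the genes passed in either direction and 1.06% with KO higher. The call was narrow. It was lost with a replicate block (adjusted p = 0.0592) and without the filter on low counts (adjusted p = 0.0558). It was also lost in 9 of 12 fits with 1 library left out, those without any 1 of the 6 WT or the 3 KO AAV-PRDM16 libraries, with adjusted p-values up to 0.119. Without KO AAV-GFP replicate 3 the log2 fold change fell to 0.67, still with adjusted p = 0.0434. In untreated mice Oasl2 did not separate the genotypes, with 2.33, 1.91, 4.96, 4.85 and 2.61 CPM in WT and 5.12, 7.15, 2.60, 2.46 and 1.72 CPM in KO (log2 fold change 0.20, SE 0.44, adjusted p = 0.816, and -0.15 without KO replicate 2).

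Oas1a, which makes the 2-5A messenger that activates RNase L, was the lowest gene in CPM. It had 0.430, 0.698 and 0.693 CPM in WT AAV-GFP, and KO AAV-GFP had 0.566, 0.538 and 2.79 CPM. In WT AAV-PRDM16 it had 0.573, 0.564 and 0.472 CPM, and in KO AAV-PRDM16 0.763, 0.712 and 0.852 CPM. The KO AAV-PRDM16 libraries lay above those of WT AAV-PRDM16 (11.5% of all genes with KO higher). They also lay just above those of WT AAV-GFP (6.15% of all genes). With AAV-PRDM16 the log2 fold change of KO over WT was 0.53 (SE 0.55, adjusted p = 0.727 by edgeR's quasi-likelihood test). In KO AAV-GFP the mean of 1.30 ± 1.29 CPM (SD, n = 3) came from replicate 3. The log2 fold change of KO over WT with AAV-GFP was 1.10 (SE 0.54, adjusted p = 0.589) and turned to -0.14 without that library. Untreated values ranged from 0.193 to 1.64 CPM in WT and from 0.657 to 1.81 CPM in KO.

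Rsad2 encodes viperin and, with Stat2, had the most counts of the 9 genes. It was at 11.4, 11.3 and 11.2 CPM in WT AAV-GFP, and KO AAV-GFP had 16.6, 12.5 and 25.5 CPM. With AAV-PRDM16 it was at 12.6, 10.1 and 8.83 CPM in WT and at 13.7, 13.2 and 23.4 CPM in KO. KO was above WT with AAV-GFP (6.51% of all genes with KO higher) and with AAV-PRDM16 (11.5%). Over both viruses the groups just touched, since KO AAV-GFP replicate 2 (12.5 CPM) was below WT AAV-PRDM16 replicate 1 (12.6 CPM). The averaged log2 fold change was 0.68 (SE 0.19), with adjusted p = 0.0789 by edgeR's quasi-likelihood test. DESeq2 gave a like value of 0.69 with adjusted p = 0.00819, in a fit that called 1584 of 18899 genes against 412 with edgeR. Untreated mice showed the reverse order of the means, 16.1 ± 6.80 CPM in WT and 10.1 ± 7.05 CPM in KO (SD, n = 5), with overlapping libraries and a log2 fold change of -0.66 (SE 0.46, adjusted p = 0.437).

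Of the ISG15 pair, the modifier Isg15 was at 0.547, 1.42 and 1.12 CPM in WT AAV-GFP, and KO AAV-GFP had 1.52, 0.646 and 3.63 CPM. With AAV-PRDM16 it was at 1.02, 0.575 and 0.810 CPM in WT and at 0.912, 0.537 and 2.19 CPM in KO. WT and KO overlapped under both viruses, and each KO group had 1 library above the rest. The log2 fold change with AAV-PRDM16 was 0.58 (SE 0.63) and turned to -0.14 without KO AAV-PRDM16 replicate 3. In untreated WT it was at 0.806, 0.733, 5.99, 2.95 and 2.65 CPM, and in untreated KO at 2.39, 3.86, 2.64, 3.49 and 4.87 CPM. The spread was thus widest in WT, where replicates 1 and 2 were below every KO library and replicate 3 above every one. Usp18, the ISG15 protease, stayed between 0.823 and 1.86 CPM in all 10 untreated libraries. With AAV-GFP its values were 1.42, 1.19 and 1.93 CPM for WT and 2.98, 1.27 and 4.15 CPM for KO, and the 6 AAV-PRDM16 libraries ranged from 0.626 to 1.94 CPM. Neither gene passed the test in any comparison, and the averaged log2 fold changes of KO over WT were 0.75 (SE 0.44, adjusted p = 0.409) for Isg15 and 0.58 (SE 0.32, adjusted p = 0.366) for Usp18. They were 0.32 and 0.37 when KO AAV-GFP replicate 3 was left out.

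The first comparison asked whether BAT without CPEB2 differs from WT. In untreated mice the 9 genes went both ways, with 5 fold changes above 0 (51.8% of all genes) and 4 below. The values ran from -1.22 (Ifit2) to 0.50 (Oas1a) with a median of 0.17 on the log2 scale, against 0.04 over the 17869 genes tested. No gene of the 9 passed edgeR's quasi-likelihood test, DESeq2 or an unadjusted p under 0.05 (over all genes 0% with edgeR, 0 genes with DESeq2 and 15.9% unadjusted), and no group pair was without overlap (1.40% of all genes). Y-linked transcripts were present in 3 of 5 WT and 1 of 5 KO libraries of this cohort. With their presence as a covariate the same 5 genes were above 0 and the median was 0.03. Macrophage markers summed to 51.3 to 374 CPM in untreated WT and 80.8 to 508 CPM in untreated KO, and their part in these values was not tested.

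With either virus the 9 genes were mostly higher in KO. With AAV-GFP, 9 of 9 fold changes of KO over WT were above 0 (51.5% of all genes), with a median of 0.89. Oasl2 and Rsad2 did not overlap between the groups (6.51% of all genes with KO higher) and had unadjusted p-values of 0.00706 and 0.0225 (4.98% of all genes were under 0.05 with KO higher), and 0 of 9 passed the adjusted test (0.0529% of all genes, and 0 of 9 with DESeq2). When KO AAV-GFP replicate 3 was left out, 7 of 9 were above 0, the median was 0.26 and 0 of 9 had an unadjusted p under 0.05 (3.20% of all genes with KO higher). With AAV-PRDM16, 8 of 9 were above 0 (51.4% of all genes), with a median of 0.53. Oasl2, Oas1a, Rsad2 and Stat2 did not overlap (11.5% of all genes with KO higher), Oasl2 and Rsad2 had unadjusted p-values of 0.0127 and 0.0260 (6.92% under 0.05 with KO higher), and 0 of 9 passed the adjusted test with edgeR (0.0476% of all genes) or DESeq2. Averaged over both viruses, 9 of 9 were above 0 (51.6% of all genes) with a median of 0.68 (0.01 over all genes), and Oasl2, Rsad2 and Ifit3 had an unadjusted p under 0.05 with KO higher, as 9.54% of all genes did. When KO AAV-GFP replicate 3 was left out, 8 of 9 were above 0, the median was 0.32 and 2 of 9 had an unadjusted p under 0.05 (7.69% of all genes with KO higher). Macrophage markers moved with the genotype too. Their sums were 65.4 to 140 CPM in WT AAV-GFP, 162 to 407 CPM in KO AAV-GFP, 47.0 to 58.7 CPM in WT AAV-PRDM16 and 88.9 to 108 CPM in KO AAV-PRDM16, and their part in the fold changes was not tested. Of the 8 brown fat markers, 7 had a fold change below 0 and 2 were called lower in KO, against 2.18% of all genes called in either direction. The called genes were Cidea (-0.39, SE 0.08, adjusted p = 0.0378 by edgeR's quasi-likelihood test), a lipid droplet protein, and Cox8b (-0.66, SE 0.12, adjusted p = 0.0189), a subunit of cytochrome c oxidase. With 1 library left out, Cidea was called in 4 of 12 fits, lost without KO AAV-GFP replicate 3 among others, and Cox8b in 9 of 12. Of the 6 endothelial markers, 4 had an unadjusted p under 0.05 with KO higher and 0 were called. The part of either list was not tested.

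**Figure D3:**
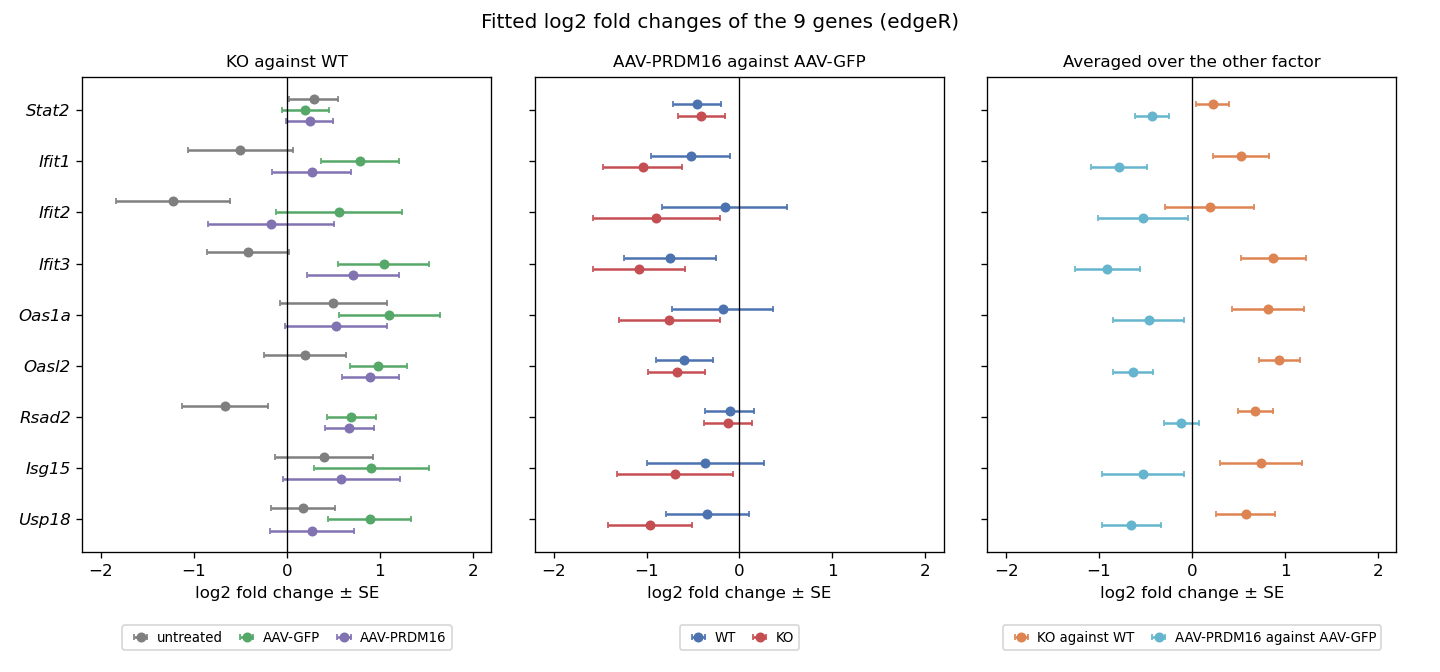
Fitted log2 fold changes (points) with SE (bars) on the horizontal axis for each of the 9 genes (vertical axis), for KO against WT in 3 settings, for AAV-PRDM16 against AAV-GFP in each genotype, and averaged over the other factor in the AAV cohort. With all AAV libraries, the averaged KO values are right of 0 for 9 of 9 genes and the virus values are left of 0 for 9 of 9. Untreated values scatter on both sides. Without KO AAV-GFP replicate 3, the averaged virus values are left of 0 for 7 of 9.

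The second comparison asked what AAV-PRDM16 did relative to AAV-GFP. All 9 fold changes were below 0 in both genotypes (52.1% of all genes in WT and 51.5% in KO), with medians of -0.37 in WT and -0.75 in KO. None of the 9 passed the adjusted test in either genotype with edgeR (0 of 18899 genes in each) or DESeq2 (0 of 9). In WT, Oasl2 and Stat2 did not overlap between the viruses (7.76% of all genes with AAV-PRDM16 lower), and 0 of 9 had an unadjusted p under 0.05 (5.19%). In KO, 0 of 9 were without overlap (6.05% of all genes). Ifit1 (adjusted p = 0.667) and Oasl2 (adjusted p = 0.751) were under 0.05 before adjustment by edgeR's quasi-likelihood test, as 5.10% of all genes were with AAV-PRDM16 lower. The 9 of 9 below 0 in KO became 5 of 9 without KO AAV-GFP replicate 3. The median was then -0.14, and 0 of 9 were under 0.05 (3.38% of all genes with AAV-PRDM16 lower). Averaged over both genotypes, 9 of 9 were below 0 (51.6% of all genes), and Ifit1, Ifit3, Oasl2 and Stat2 had an unadjusted p under 0.05 with AAV-PRDM16 lower, as 7.02% of all genes did. For Ifit3 the averaged log2 fold change was -0.91 (SE 0.35, adjusted p = 0.390) and -0.54 without KO AAV-GFP replicate 3. For Rsad2, with the smallest value of the 9, it was -0.11 (SE 0.19, adjusted p = 0.962) and 0.0452 without that library. None of the 9 passed after adjustment (0.0370% of all genes, and 0 of 9 with DESeq2). Without KO AAV-GFP replicate 3, 7 of 9 averaged values were below 0, and Oas1a (0.15) and Rsad2 were above. Then 1 of the 9 had an unadjusted p under 0.05 with AAV-PRDM16 lower (5.56% of all genes). For Prdm16, the delivered gene, the averaged log2 fold change was 1.49 (SE 0.24, adjusted p = 0.0527).

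KO with AAV-PRDM16 was also set against WT with AAV-GFP, the pair that shows how far treated KO tissue was from control WT. The 9 genes lay on both sides of 0, with 4 above (47.4% of all genes) and 5 below and a median of -0.04. Oasl2, Oas1a and Rsad2 were higher in KO AAV-PRDM16 without overlap (6.15% of all genes), with log2 fold changes of 0.31 (SE 0.30), 0.35 (SE 0.54) and 0.57 (SE 0.26). None of the 9 passed edgeR's quasi-likelihood test (0.00529% of all genes) or DESeq2, and 0 of 9 had an unadjusted p under 0.05 (7.93%). For the interaction, which asks whether the virus acted differently in KO, 0 of 9 passed with edgeR (0 of 18899 genes), with DESeq2 or before adjustment (3.19% of all genes). The median interaction was -0.33, and it turned to 0.42 without KO AAV-GFP replicate 3. These AAV comparisons share libraries, so their values are not independent of each other.

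Across the 12 AAV libraries the 9 genes varied together to different degrees. The correlation (Pearson, log2 CPM) of each gene with the mean of the other 8 was highest for Ifit3 (r = 0.97, n = 12), Ifit1 (0.95) and Isg15 (0.91), and lowest for Ifit2 (0.39). Without the 2 libraries farthest from the median these were 0.92, 0.86, 0.82 and 0.19. By rank (Spearman), Ifit2 was at 0.78 over the 12 libraries, and Oasl2 was lowest at 0.44. The farthest libraries were picked by the mean of the other 8 genes. This kept KO AAV-PRDM16 replicate 2, with its 26 counts of Ifit2. Over all 12 libraries the gene outside the group with the most similar pattern was Irf7, the interferon regulatory factor that is itself induced by ISGF3, with r = 0.96 to the mean of the 9 genes (0.85 without the 2 farthest libraries, where Cadm1 was higher at 0.87). Ly6e (r = 0.94) and Ifit3b (r = 0.92) were also among the 8 most similar of 14262 genes, together with Rab3il1, Cadm1, Coro1c, Cd300c2 and Fam111a (0.92 each). Ifit3b is the close copy of Ifit3, and the part of reads that could belong to either was not tested. In the untreated cohort the genes held together less, from r = 0.18 for Ifit2 to 0.74 for Ifit1 (n = 10). The 8 most similar genes there, led by Gjc1 (r = 0.96), Nr2f1 (0.93) and Efr3b (0.93), held no gene of the interferon lists. All these values share the libraries and their scaling.

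The mean of the 9 genes ran with immune cell markers in the AAV cohort. Its correlation with the log2 of the summed macrophage markers was r = 0.85 (n = 12, 0.69 without KO AAV-GFP replicate 3), and with that of the T cell markers r = 0.77 (0.65 without it). With brown fat markers it was -0.05. In the untreated cohort the value for macrophage markers was 0.45 (n = 10). Without the 2 libraries whose marker sums were farthest from the median it was 0.70, against 0.73 by the same step in the AAV cohort. For T cell markers this step took the untreated value from 0.54 to 0.17 and left 0.65 in the AAV cohort. The library labelled KO replicate 1 had the highest macrophage sum of the untreated cohort, 508 CPM, so the step left it out for these markers. Its mean log2 CPM over the 9 genes was 1.30, near the low end of 1.11 to 2.54. Whether macrophages, T cells or adipocytes held the transcripts was not tested.

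**Figure D4:**
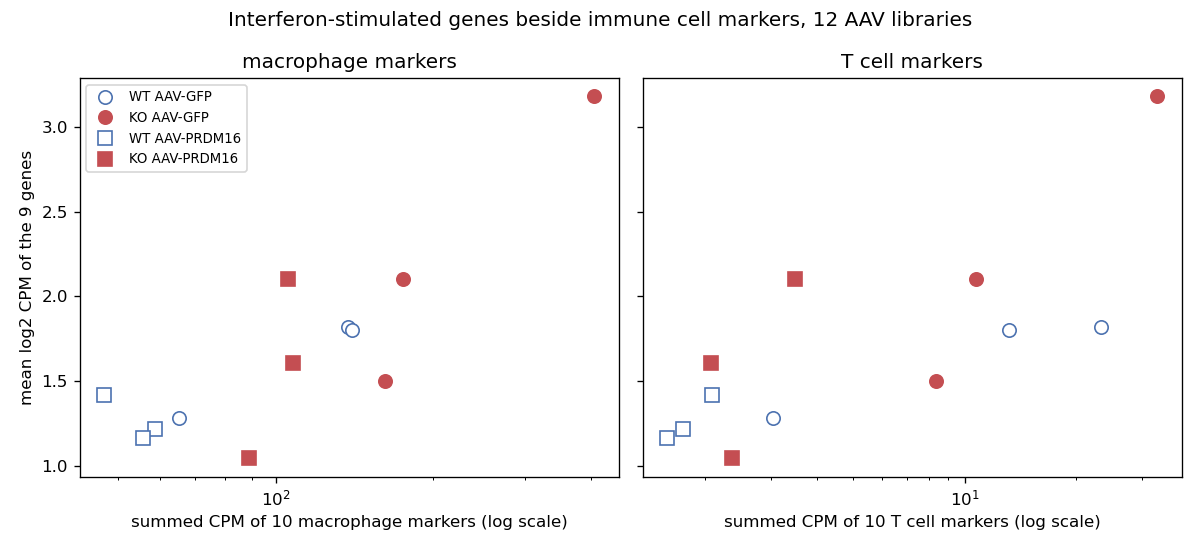
Mean log2 CPM of the 9 genes (vertical axis) against the summed CPM of 10 macrophage markers (left) and 10 T cell markers (right), both on log axes, for the 12 AAV libraries. KO AAV-GFP replicate 3 stands alone at the top right at 407 and 33.1 CPM, and the WT AAV-PRDM16 libraries gather at the lower left between 47.0 and 58.7 CPM of macrophage markers.

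The rest of the pathway was followed through fixed lists. Of 21 interferon ligand genes, none passed the filter in the untreated cohort and 1, Ifng, passed in the AAV cohort. The ligands summed to at most 0.424 CPM in any AAV library, so the transcripts of the inducing signal were at the edge of detection. The receptor genes Ifnar1 and Ifnar2, which bind type I interferon, were at 47.4 and 63.9 CPM on average over the KO AAV groups and 46.6 and 70.5 CPM over the WT AAV groups, and neither passed the test. Ifngr1, a chain of the interferon gamma receptor, was higher in KO by 0.66 on the log2 scale (SE 0.11, adjusted p = 0.0145 by edgeR's quasi-likelihood test), without overlap of the 6 KO and 6 WT libraries and called in 12 of 12 fits with 1 library left out. It was 1 of 6 receptor genes called, against 2.18% of all genes in either direction and 1.06% with KO higher. These shares also stand against the genotype counts of the lists that follow. None of the 6 JAK-STAT signal transducers was called by genotype.

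Among 14 nucleic acid sensors and adaptors, 2 were called, both higher in KO averaged over both viruses. Tlr3, the endosomal receptor for double-stranded RNA, was 0.49 higher (SE 0.09, adjusted p = 0.0216) and Tlr7, the receptor for single-stranded RNA, 1.24 higher (SE 0.28, adjusted p = 0.0424). Tlr3 was called in 8 of 12 fits with 1 library left out (lost without WT AAV-GFP replicate 2, WT AAV-PRDM16 replicates 1 and 3 or KO AAV-PRDM16 replicate 1) and Tlr7 in 1 of 12 (kept without KO AAV-GFP replicate 1). Of 34 other antiviral effectors 1 was called, Tor3a (0.51, SE 0.12, adjusted p = 0.0482), a share near that of all genes, and it was kept in 1 of 12 such fits, the one without KO AAV-GFP replicate 1. The median of these 34 was 0.28, with 32 above 0. The 10 IFIT and OAS paralogs had a median of 0.71 and 8 above 0, and the 4 ISG15 conjugation enzymes had a median of 0.36 with 4 above 0, none of them called. The 10 macrophage markers had a median of 0.98, with 10 above 0 and 4 called. Of these, Cd163 was called in 12 of 12 fits with 1 library left out, Mrc1 in 5, Csf1r in 3 and C1qb in 2. Without KO AAV-GFP replicate 3 these medians were 0.15, 0.43, 0.18 and 0.70.

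By virus, the interferon gamma-induced genes stood further from 0 than the 9 genes. Of the 14 on that list, 13 had an unadjusted p under 0.05 with AAV-PRDM16 lower, averaged over both genotypes, and the median was -1.49, against 4 of 9 and -0.53 for the antiviral effectors and 7.02% of all genes. None of the 14 passed after adjustment. Examples were Cd74 (-1.49, SE 0.30, adjusted p = 0.0543), H2-Aa (-1.48, SE 0.29, adjusted p = 0.0543) and H2-Ab1 (-1.63, SE 0.32, adjusted p = 0.0543). Without KO AAV-GFP replicate 3 it was again 13 of 14, with a median of -1.21, while the antiviral effectors went to 1 of 9 and -0.37 (5.56% of all genes). The difference between the lists was not tested. Natural killer cell markers had a median of -3.74, T cell markers one of -3.15 and macrophage markers one of -1.15 in the same comparison, and their part was not tested. Irf1, a regulator that interferon induces, was the one gene of the 6 interferon regulatory factors to pass by virus, as 0.0370% of all genes did in either direction. Its log2 fold change was -0.61 (SE 0.08, adjusted p = 0.0453 by edgeR's quasi-likelihood test), with all 6 AAV-PRDM16 libraries below all 6 AAV-GFP libraries (0.487% of all genes). Its call was kept in 2 of 12 fits with 1 library left out, those without WT AAV-GFP replicate 1 or KO AAV-GFP replicate 1. The value of Irf7 was -0.98 (SE 0.34, adjusted p = 0.288).

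**Figure D5:**
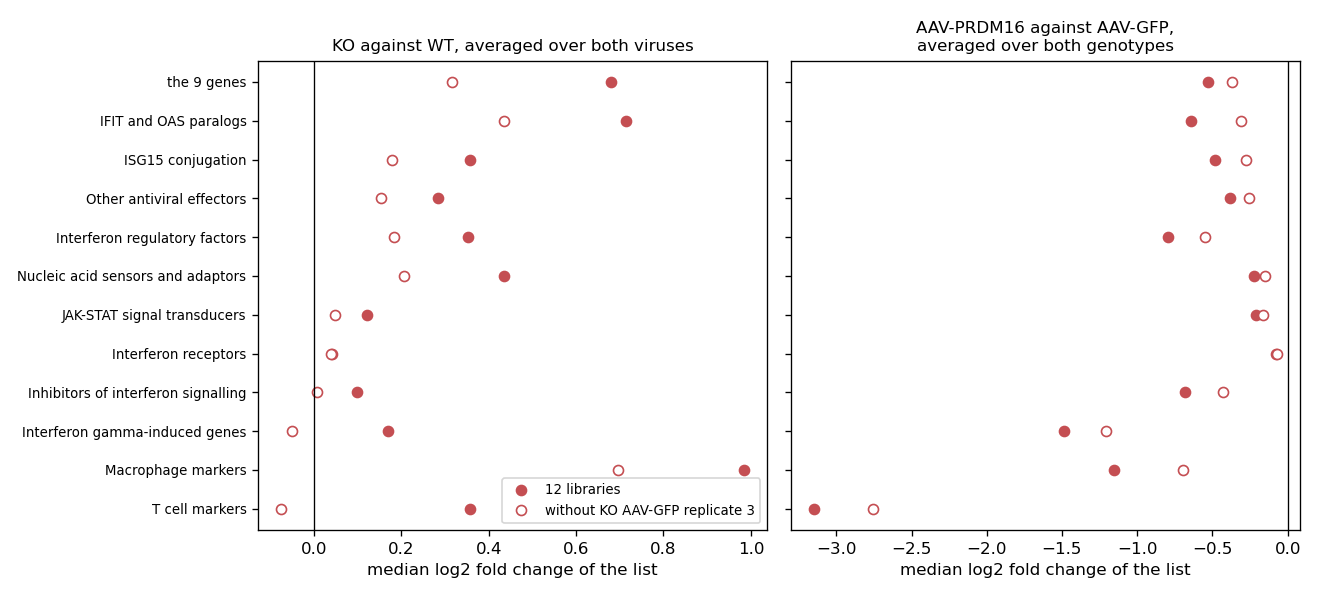
Median log2 fold change (horizontal axis) of each list of genes in the AAV cohort, by genotype (left) and by virus (right), with all 12 libraries (filled) and without KO AAV-GFP replicate 3 (open). The 9 genes have medians of 0.68 and 0.32 by genotype and -0.53 and -0.37 by virus.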

How the data were processed

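The deposited files held whole-number counts per gene, made by the authors with, in the submitters' processing notes, bcl2fastq 2.20, Trimmomatic 0.36 and HISAT2 on GRCm38.p6. The counting tool and its strand setting are not given in the sources used here. Libraries came from a kit for messenger RNA, per the labels, and totals were 55320927 to 162721202 counts.

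Gene symbols came from a reference table of identifiers for 55141 of the 55487 identifiers. Each cohort was fitted alone with edgeR 4.0.16 (R 4.3.3): filterByExpr by group, which left 17869 genes (untreated) and 18899 (AAV), TMM scaling, glmQLFit and a two-sided glmQLFTest, with Benjamini-Hochberg adjustment over all genes tested. A gene was called at an adjusted p of at most 0.05. The SE was the absolute log2 fold change over the square root of F. All 12 AAV libraries entered 1 fit, and the genotype and virus contrasts were averaged over the other factor. CPM used TMM library sizes, and log2 CPM a prior count of 2. The code was tested on simulated data.

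Every member was named. Of the other lists, genes called in a contrast were named, with up to 3 of the highest mean count, and the 8 genes most correlated with the mean of the members. The members and lists were chosen with earlier results of these data known. The labels give no litter or batch, and p-values measure the spread between these libraries. DESeq2 1.42.0, RLE scaling, no filter, a replicate block, single libraries left out, 2-group fits, a covariate for Y-linked transcripts and the removal of untreated WT mice 1 and 2 were tried. The refits of the lists without single AAV libraries were chosen after seeing the data. One item is not reported here.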

Additional observations from a re-analysis of the deposited data

Results flagged for a closer look

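The genotype difference of Ifit2 ran in opposite directions in the untreated cohort and under AAV-GFP. All 5 libraries labelled untreated KO were below the mean of untreated WT (KO mean 1.90 ± 1.49 CPM, WT mean 4.45 ± 0.819 CPM, SD, n = 5), and all 3 KO AAV-GFP libraries were above the mean of WT AAV-GFP (KO mean 6.67 ± 2.18 CPM, WT mean 4.53 ± 0.694 CPM, SD, n = 3). The library labelled KO replicate 1, with 11.7 CPM of Cpeb2 and so within the WT range, is among the 5. The untreated log2 fold change of -1.22 was -0.92 without it. The difference between the cohorts was not tested. The AAV-GFP log2 fold change of 0.56 was 0.26 without KO AAV-GFP replicate 3. In 18 pairs of gene and untreated group examined for 1 library far from the others, 0 were found, where chance gives about 1 in 20.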

How the results depend on the processing

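The 1 call among the 9 genes, Oasl2 by genotype in the AAV cohort, depended on the processing. Of the 9 genes, 2 were called with DESeq2 (Oasl2 and Rsad2), which called 1584 of 18899 genes in all against 412 with edgeR. In the fit without the filter on low counts 0 were called (Oasl2 0.94, adjusted p = 0.0558), with 250 of 29348 genes called in all. With 1 library left out 0 or 1 were called. In all other comparisons 0 of 9 were called under every alternative. Replicate numbers did not pair the libraries, since deviations of same-numbered libraries correlated at -0.29 to 0.11 (untreated) and -0.0912 to 0.15 (AAV). With the replicate block 0 of 9 were called by genotype (Oasl2 0.92, adjusted p = 0.0592, with 344 genes called in all against 412), and Isg15 in KO AAV-PRDM16 against WT AAV-GFP turned to -0.0491. Without untreated WT mice 1 and 2 together, Isg15 (-0.12), Oasl2 (-0.0812) and Usp18 (-0.00664) changed sign. Of the other fold changes, 380 kept their sign and side of the threshold under settings that left out no single library, and 904 did so with 1 library left out, where 41 changed sign. The genes that changed sign are given with their lowest and highest log2 fold change. For KO against WT with AAV-GFP these were Oas1a (-0.14 to 1.47) and Stat2 (-0.24 to 0.43). For KO against WT with AAV-PRDM16 these were Ifit2 (-0.84 to 0.39), Isg15 (-0.14 to 0.94) and Usp18 (-0.0391 to 0.81). For the averaged genotype these were Ifit2 (-0.14 to 0.47) and Stat2 (-0.00126 to 0.34). For the interaction these were Ifit1 (-0.90 to 0.19), Ifit3 (-0.73 to 0.42), Isg15 (-1.05 to 0.52), Oas1a (-0.94 to 0.67), Oasl2 (-0.34 to 0.45), Rsad2 (-0.33 to 0.31) and Stat2 (-0.19 to 0.48). For the virus in KO these were Isg15 (-1.42 to 0.15), Oas1a (-1.12 to 0.48), Rsad2 (-0.44 to 0.20) and Stat2 (-0.60 to 0.0236). For KO AAV-PRDM16 against WT AAV-GFP these were Ifit2 (-1.004 to 0.23), Ifit3 (-0.44 to 0.24), Isg15 (-0.51 to 0.58), Stat2 (-0.32 to 0.0222) and Usp18 (-0.22 to 0.14). For untreated KO against WT these were Oasl2 (-0.15 to 0.38). For the averaged virus these were Oas1a (-0.65 to 0.15) and Rsad2 (-0.27 to 0.0452). For the virus in WT these were Rsad2 (-0.25 to 0.00465). The causes were not tested. Groups of 3 to 5 mice and the 13 to 26 counts of Ifit2 in its lowest libraries limit the precision.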

Other observations

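Ifit2 was nearly absent from 2 of the 22 libraries, the library labelled untreated KO replicate 1 (13 counts, 0.126 CPM) and KO AAV-PRDM16 replicate 2 (26 counts, 0.241 CPM). No library labelled WT was below 3.64 CPM. Ifit1 and Ifit3 were at 4.16 and 3.89 CPM in the first of these libraries and at 1.99 and 2.73 CPM in the second. The first had 11.7 CPM of Cpeb2, within the untreated WT range of 7.69 to 14.3 CPM, so its genotype label is uncertain. These libraries were singled out after their values were seen.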
